A study of Mus musculus with 2 samples.

Results

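Blood B cells were studied in 2 single-cell RNA libraries, 1 from WT mice and 1 from APP/PS1 mice. APP/PS1 mice carry transgenes for mutant amyloid precursor protein and presenilin 1 and deposit amyloid in the brain. As the study describes it, each library pooled blood cells of 3 mice at 7 months of age, and its mice were female. C57BL/6J mice are listed among those used but are not tied to the WT library. The labels give no treatment and name the cells neutrophils. Red cells were lysed and neutrophils were then enriched by a kit that removes other blood cells with antibodies, so the B cells measured here are those left after that removal, and their number is no measure of B cells in blood.

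B cells were chosen by their measured marker UMIs. A barcode was taken as a B cell when it held at least 3 unique molecular identifiers (UMIs, each standing for 1 captured transcript) of Cd79a, Cd79b and Ms4a1 together. It also had to hold at least 1000 UMIs with at most 10% from mitochondrial genes, under 4% from the neutrophil genes S100a8 and S100a9, fewer than 3 UMIs of the plasma cell gene Jchain, none of the T cell genes Cd3e, Cd3g and Trac, and none of the monocyte gene Csf1r. The WT library gave 241 such cells of 17123 barcodes, or 1.41% (95% Clopper-Pearson interval 1.24% to 1.60%). The APP/PS1 library gave 281 of 17645, or 1.59% (1.41% to 1.79%). Both intervals overlapped. In all, 522 of 34768 barcodes were B cells. Because each genotype is 1 library, no test was possible, no p-value is given, and every interval covers counting error only and not the difference between mice. Intervals of levels and of their ratios, given below, treat each UMI as a separate draw and so also leave out the spread between cells.

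B cells of WT held 1109064 UMIs in total, with a lowest cell of 1114, a median of 4059 and a highest of 17941 UMIs. B cells of APP/PS1 held 1476079 UMIs, with a lowest cell of 1035, a median of 5368 and a highest of 16070. The median number of genes detected per cell was 1486 in WT and 1768 in APP/PS1. The APP/PS1 cells were thus the deeper ones, and shares of cells with a UMI are therefore also given after each cell had been thinned to 1000 UMIs, which every B cell reached. Levels are UMIs summed over all B cells of a library scaled to a total of 1000000 UMIs (CPM). The 3′ counts do not grow with transcript length. A gene with 0 UMIs could still lie at up to 2.70 CPM in WT against 2.03 CPM in APP/PS1, the level of 3 UMIs. The libraries shared 83 barcode sequences, of which 2 were B cells in APP/PS1 and none was a B cell in WT.

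B lymphocytes recognise antigen through a surface immunoglobulin made of a heavy and a light chain, which signals through the paired proteins Cd79a and Cd79b. Each B cell joins its own variable segments during development, carries IgM and often IgD, uses either a kappa or a lambda light chain, and may later switch to IgG, IgA or IgE. Follicular B cells recirculate through blood and lymphoid organs and carry Fcer2a (CD23) and IgD. B1 cells are a self-renewing lineage, best known from the body cavities, that makes natural IgM and carries little CD23 and IgD.

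The label was checked on genes that the rule had not used. The B lineage transcription factor Pax5 had 317 CPM in B cells of WT and 287 CPM in those of APP/PS1. In T cells, monocytes and neutrophils of the same libraries together it had 0.138 CPM and 0.0905 CPM. Ebf1, which sets the B cell programme together with Pax5, had 899 CPM and 800.1 CPM, against 0.435 CPM and 0.475 CPM. The surface protein Ly6d had 1546 CPM and 1549 CPM. By the ratio to the other cells, the genes that followed the 3 rule markers included Pax5, Ebf1, Ly6d, Fcmr, Fcrla, Iglc2, Iglc3, Mzb1, Nid1, Ighd, Pou2af1, Bhlhe41, Igkc, Blnk, Hepacam2 and Scd1. Fcmr is the receptor for IgM, Pou2af1 a coactivator of octamer-binding factors at immunoglobulin promoters, and Blnk an adaptor of antigen receptor signalling. These comparisons between cell types describe how the cells were chosen, and no test was made of them.

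**Figure D1:**
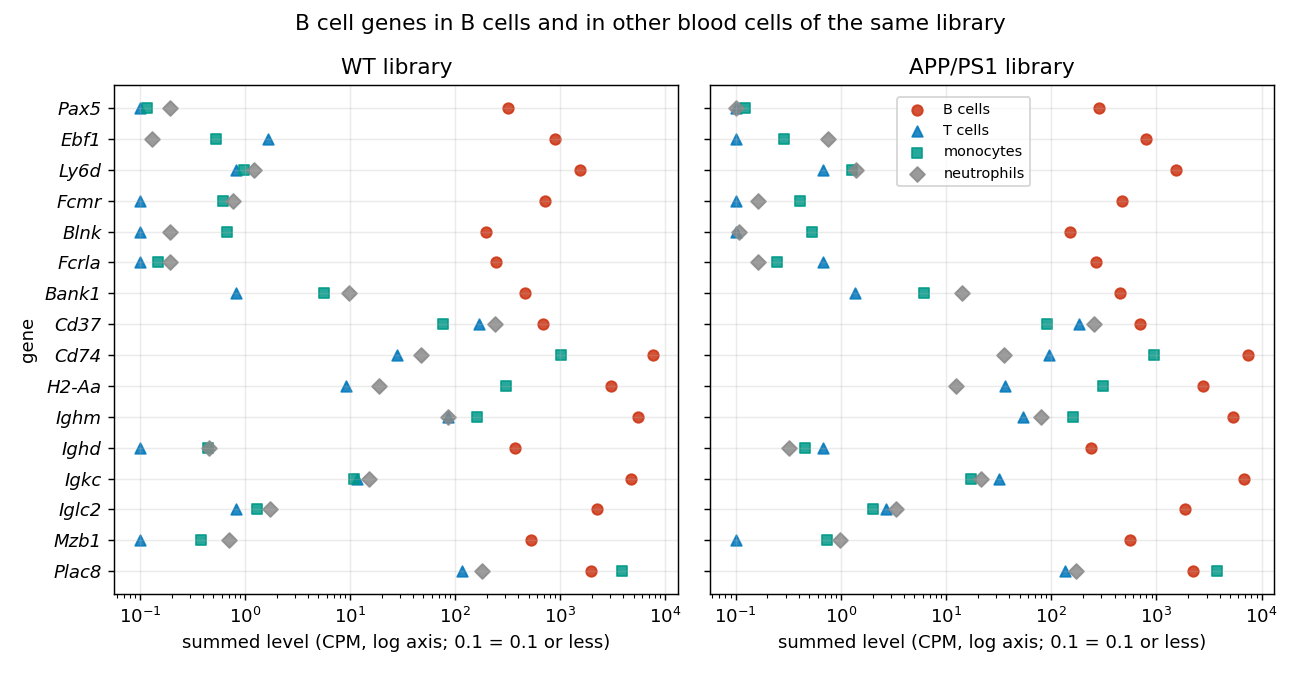
Summed level (CPM, log axis) of 16 B cell genes in B cells, T cells, monocytes and neutrophils of the WT library (left) and the APP/PS1 library (right), each point being 1 cell type in 1 library. B cells stood above the other cell types for each gene but Plac8, which was higher in monocytes; Pax5 had 317 CPM and 287 CPM in B cells.

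The marker threshold fell where few cells lay. Among cells that met every other part of the rule, exactly 2 marker UMIs were found in 11 cells of WT and 13 of APP/PS1, and exactly 3 in 4 and 8 cells. Of those with 2 UMIs, 10 and 11 cells also held a UMI of Ighm or of a light chain constant region. All 4 and all 8 cells with 3 UMIs did so. Ighm reached 645 CPM and 1067 CPM in the cells with 2 marker UMIs and 4487 CPM and 1308 CPM in those with 3, whereas the median B cell held 19 marker UMIs in WT and 25 in APP/PS1.

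RNA of other cell types was low but not absent. The T cell list of 10 genes summed to 4.51 CPM in WT against 5.42 CPM in APP/PS1, with 6 of its genes at 0 in both libraries, 3 of which the rule had set to 0. The most abundant of the list was Lef1 in WT, at 2.70 CPM, and Cd3d in APP/PS1, at 2.03 CPM. The killer cell list of 8 genes summed to 416 CPM and 617 CPM, led by Tyrobp with 371 CPM and 401 CPM. The platelet list of 8 summed to 257 CPM and 157 CPM, and the basophil list of 6 to 0.902 CPM and 0.677 CPM. Neutrophil genes were higher: the list of 10 summed to 4452 CPM and 3333 CPM, led by S100a9 with 1879 CPM and 1432 CPM, and no gene of it was at 0. T cells of WT had 1603 CPM of S100a9, and neutrophils 97503 CPM. Haemoglobin made up 16376 CPM in WT against 4017 CPM in APP/PS1, but 17241 of 18162 UMIs in WT came from 4 cells, and 5277 of 5930 in APP/PS1 from 1 cell. In those cells haemoglobin took 18.8% to 58.7% of the UMIs. Without them haemoglobin had 866 CPM and 446 CPM. A single APP/PS1 cell held 187 of the 270 UMIs of the killer cell genes Ccl5 and Gzma.

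The antigen receptor was read in nearly every cell. Ighm, the constant region of IgM, had 5500 CPM (95% Poisson interval 5363 to 5640) in WT. In APP/PS1 it had 5382.5 CPM (5265 to 5502), and the ratio of APP/PS1 to WT was 0.979 (0.946 to 1.01). At least 1 Ighm UMI was found in 233 of 241 WT cells (96.7%) and 264 of 281 APP/PS1 cells (94.0%). T cells, which do not make immunoglobulin, gave 21.5% and 13.8% at median depths of 3794 and 3330 UMIs, and 6.45% and 3.38% when thinned. Cd79a had 2081 CPM and 1996 CPM, Cd79b 1284 CPM and 1429 CPM, and Ms4a1 (CD20) 1202 CPM and 1465 CPM. Of the 19 genes of the receptor and its co-receptors, 14 reached 200 UMIs over both libraries and Ighd alone of them differed by 1.5-fold or more, beside 4.09% of all 1589 genes that reached that level.

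Ighd, the constant region of IgD, lies on chromosome 12 from 113406604 to 113416324 (GRCm38, minus strand). It had 375 CPM in WT against 237 CPM in APP/PS1, a ratio of 0.632 (0.547 to 0.731). The share of cells with an Ighd UMI was 62.7% (56.2% to 68.8%) in WT cells and 43.4% (37.5% to 49.4%) in APP/PS1 cells. After thinning it was 32.4% and 18.5%, lower in APP/PS1 by 13.9 percentage points (interval of the difference -21.2 to -6.39, Newcombe's method). T cells had a UMI of Ighd in 0 of 279 and 1 of 385 cells. The difference from 1 UMI thus exceeded counting error. From 2 UMIs the thinned shares were 9.96% and 6.41%, and their difference of -3.55 points (-8.55 to 1.17) included 0 in its interval.

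Switched isotypes were found in a minority of cells. At least 5 UMIs of the IgG, IgA and IgE constant regions together were held by 9 WT cells (3.73%) and 19 APP/PS1 cells (6.76%), a difference of 3.03 points (-0.975 to 6.99). After thinning 1 WT cell (0.415%) and 2 APP/PS1 cells (0.712%) held as many. From 2 UMIs the shares were 4.98% and 9.96% as deposited, a difference of 4.99 points (0.372 to 9.56). After thinning the shares from 2 UMIs were 3.32% and 3.20%. Ighm was at 0 in 8 and 17 cells, and 6 and 13 of these held at least 2 UMIs of a switched isotype. Igha, the constant region of IgA, had at least 2 UMIs in 4 and 5 cells (1.66% and 1.78%), and Ighg3, that of IgG3, in 5 and 12 (2.07% and 4.27%), while no T cell of either library had 2 UMIs of either gene. Ighg1 was at 0 in WT and had 17 UMIs in 3 cells of APP/PS1, and Ighg2c was at 0 in WT and had 12 UMIs in 6 cells. Ighe was at 0 in both. At least 1 switched UMI was found in 12.0% and 21.4% of cells as deposited, but in 6.22% and 5.69% after thinning, beside 1.43% and 3.12% of T cells as deposited, so the gap between the libraries was not detectable at equal depth.

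Light chain use differed between cells. Igkc, the constant region of kappa (chromosome 6, 70726435 to 70726966, plus strand), had 4709 CPM (4583 to 4839) in WT. In APP/PS1 it had 6815 CPM (6682 to 6949), 1.45 times the WT level (1.40 to 1.497) and short of 1.5-fold. Iglc1 had 1003 CPM and 830 CPM, Iglc2 2232 CPM and 1860 CPM, and Iglc3 836 CPM and 917 CPM. Lambda took 46.4% of all light chain constant UMIs in WT and 34.6% in APP/PS1. Cells with at most 1 Igkc UMI numbered 47 of 241 in WT (19.5%) and 39 of 281 in APP/PS1 (13.9%), which differed by -5.62 points (-12.1 to 0.768). After thinning these shares were 28.2% and 20.996%, and the difference of -7.22 points (-14.6 to 0.166) still included 0 in its interval. Cells with over 95% lambda among their light chain UMIs made up 18.7% and 12.8% as deposited, a difference of -5.86 points (-12.2 to 0.383). After thinning they made up 22.4% and 14.6%, a difference of -7.82 points (-14.6 to -1.16), so only the thinned interval excluded 0.

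A lambda constant UMI was found in nearly every B cell, kappa cells included: in 236 of 241 WT cells (97.9%) and 278 of 281 APP/PS1 cells (98.9%). T cells had one in 2 of 279 (0.717%) and 11 of 385 (2.86%). Both kappa and lambda UMIs were held by 80.5% of WT and 87.2% of APP/PS1 cells, and by 64.3% and 72.2% after thinning. Among the 194 WT cells with 2 or more Igkc UMIs, the median cell held 22 Igkc and 10.5 lambda UMIs. Among the 242 such APP/PS1 cells it held 35.5 and 11. In the remaining cells, with at most 1 Igkc UMI, the median lambda count was 36 in WT and 26 in APP/PS1. Lambda was thus present in kappa cells at a lower count than in the cells without kappa. The share of lambda in a kappa cell had a median of 29.0% in WT and 22.8% in APP/PS1. In the median cell of the remainder all light chain UMIs were lambda.

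**Figure D2:**
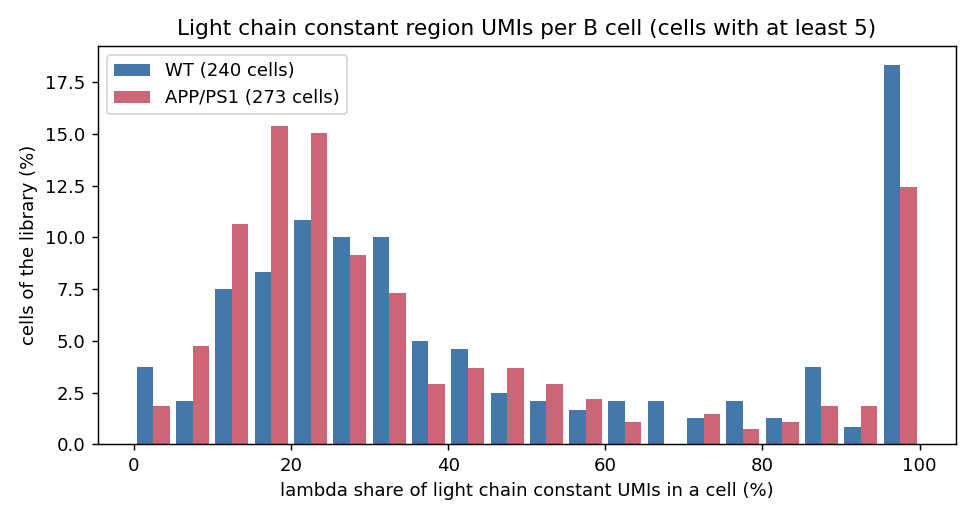
Share of lambda (Iglc1, Iglc2 and Iglc3) among the light chain constant region UMIs of a cell (x axis, %, in bins of 5) against the percentage of cells of each library (y axis), for the 240 WT and 273 APP/PS1 cells with at least 5 such UMIs. Most cells lay between 10% and 60%, with 150 in WT and 199 in APP/PS1, and a separate group of 44 and 34 cells lay above 95%.

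The 3 lambda genes were also counted in kappa cells and in the others, as ratios of summed UMIs with no interval or test. Iglc3 had 0.476 UMIs per Iglc2 UMI in kappa cells of WT and 0.527 in those of APP/PS1, against 0.231 and 0.377 in the cells with at most 1 Igkc UMI. Iglc1 had 0.379 and 0.348 per Iglc2 UMI in kappa cells, against 0.549 and 0.784. A UMI of a lambda variable segment was found in 13 of 194 and 15 of 242 kappa cells, and in 10 of 47 and 7 of 39 of the others. A kappa variable segment was found in 41 and 66 kappa cells, and in 2 and 1 of the others.

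Iglc2 and Iglc3 are near-identical copies, so reads can be split between them by few bases and their separate values are uncertain. Over the last 312 coding bases, Iglc2 and Iglc3 differed at 11 positions (96.5% identity), while Iglc1 was 73.2% identical to Iglc2 and 74.1% to Iglc3 when aligned with gaps. The last 300 coding bases of both copies are shown, from GENCODE M21 on GRCm38. They are read 5′ to 3′ on the minus strand, Iglc2 at chr16:19198539-19198838 and Iglc3 at chr16:19065368-19065667, and capitals mark the bases of Iglc3 that differ from Iglc2.
Iglc2: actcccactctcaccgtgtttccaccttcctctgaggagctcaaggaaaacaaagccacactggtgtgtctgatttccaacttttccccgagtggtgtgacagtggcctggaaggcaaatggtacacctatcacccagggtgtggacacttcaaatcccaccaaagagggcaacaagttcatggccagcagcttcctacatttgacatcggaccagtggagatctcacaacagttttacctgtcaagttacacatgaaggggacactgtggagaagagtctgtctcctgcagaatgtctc
Iglc3: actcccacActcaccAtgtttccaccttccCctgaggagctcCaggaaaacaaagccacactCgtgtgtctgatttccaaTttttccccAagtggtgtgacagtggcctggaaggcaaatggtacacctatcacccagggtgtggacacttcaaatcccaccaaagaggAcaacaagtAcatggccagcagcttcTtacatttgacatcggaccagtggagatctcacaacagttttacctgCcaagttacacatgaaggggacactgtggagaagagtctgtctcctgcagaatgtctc

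Variable segments were read rarely, since the 3′ ends of the transcripts lie in the constant regions. A UMI of any variable segment was found in 96 cells of WT (39.8%) and 100 cells of APP/PS1 (35.6%), or 12.4% and 6.76% after thinning. Heavy chain segments (Ighv) were found in 41 and 26 cells and kappa segments (Igkv) in 43 and 67. None of the 67 cells with a heavy chain segment held more than 1 Ighv gene, and 8 of the 110 cells with a kappa segment held more than 1 Igkv gene. No segment reached 200 UMIs.

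The most read heavy chain segment was Ighv11-2, with 8 UMIs in 6 WT cells and 4 UMIs in 4 APP/PS1 cells. The most read kappa segment was Igkv14-126, with 2 UMIs in 2 WT cells and 10 UMIs in 9 APP/PS1 cells. Ighv11-2 is known from B1 cells, where it is paired with Igkv14-126 in antibodies that bind phosphatidylcholine. Both were found together in 2 cells, 1 in each library. Neither had a UMI in the T cells, monocytes, neutrophils or plasma cells of either library. Other segments were each found in fewer than 10 cells, apart from the lambda segments Iglv1 (21 cells), Iglv3 (14) and Iglv2 (10), and 3 of the next most read kappa segments were Igkv12-46 (11 UMIs), Igkv1-117 (9) and Igkv2-109 (9). Igkv2-109 was read in 1 WT and 8 APP/PS1 cells. Members of a segment family share sequence, so the assignment of single UMIs to a gene is uncertain.

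The germline sequence of this pair is shown because the reads of these 19 cells were assigned to it. Each is the main variable exon in GENCODE M21 on GRCm38, 5′ to 3′. Ighv11-2 lies at chr12:114048241-114048540 on the minus strand, with the first 7 of the 307 coding bases of the exon left out, and Igkv14-126 at chr6:67896345-67896642 on the plus strand. Capitals run from the last TGT, the cysteine codon at which the third complementarity-determining region begins, to the end at which the segment is joined. They are germline bases and not those of a cell.
Ighv11-2: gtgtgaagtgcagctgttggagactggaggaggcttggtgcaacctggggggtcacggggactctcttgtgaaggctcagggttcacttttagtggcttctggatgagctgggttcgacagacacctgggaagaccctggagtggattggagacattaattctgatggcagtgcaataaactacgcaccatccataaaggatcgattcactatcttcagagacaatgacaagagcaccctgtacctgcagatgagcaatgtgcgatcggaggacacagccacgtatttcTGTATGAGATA
Igkv14-126: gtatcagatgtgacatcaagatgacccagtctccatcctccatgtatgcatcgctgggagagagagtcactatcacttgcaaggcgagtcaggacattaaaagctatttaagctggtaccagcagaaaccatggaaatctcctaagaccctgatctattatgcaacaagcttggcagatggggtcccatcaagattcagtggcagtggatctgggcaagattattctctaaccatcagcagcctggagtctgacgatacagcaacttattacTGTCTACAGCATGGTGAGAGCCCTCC

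The genotype comparison covered 1589 genes with at least 200 UMIs over the B cells of both libraries. A gene was called when its CPM differed by at least 1.5-fold. Of these genes 30 were higher in APP/PS1 (1.89%) and 35 were lower (2.20%), 4.09% in all, and 1202 genes lay within 1.2-fold. The median log2 ratio over all 1589 genes was 0.0026. Every one of the 65 called genes had a counting interval that excluded 1. At 200 UMIs or more and 1.5-fold this nearly follows from the filters, so it adds no support to a call.

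S100a4 had the highest ratio of the 1589 genes. It lies on chromosome 3 from 90603771 to 90606045 and had 90.2 CPM in WT against 382 CPM in APP/PS1, a ratio of 4.24 (3.42 to 5.30). S100a6, its neighbour (chromosome 3, 90612882 to 90624181), had 1159 CPM and 2325 CPM, a ratio of 2.01 (1.88 to 2.14). Both encode S100 calcium-binding proteins. Lgals1 had 123 CPM and 249 CPM, and Lgals3 73.9 CPM and 131 CPM, both galectins, which bind galactose-containing sugars. Anxa2, an annexin that binds S100a10 at membranes, had 92.0 CPM and 150.4 CPM. The integrin chains Itgb1 and Itgb7, with which lymphocytes bind matrix and gut endothelium, had 159 CPM and 257 CPM, and 121 CPM and 194 CPM. In T cells, monocytes and neutrophils the S100a4 ratio was 0.737, 0.945 and 0.717, and the S100a6 ratio 1.11, 0.981 and 0.818, so neither differed by 1.5-fold there. In the 7 and 12 plasma cells S100a6 had 300.1 CPM and 881 CPM, a ratio of 2.94 from 138 UMIs. Lgals3 also had a ratio of 1.87 in T cells. S100a6 was found in 36.1% of WT and 58.7% of APP/PS1 B cells after thinning, and S100a4 in 4.98% and 15.7%. T cells, which also express both genes, gave 59.5% and 70.6% for S100a6 and 43.7% and 38.2% for S100a4.

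Cst3, which encodes the protease inhibitor cystatin C (chromosome 2, 148871722 to 148875692), had 219 CPM in WT against 812 CPM in APP/PS1, a ratio of 3.70 (3.22 to 4.27). It was found in 23.2% of WT and 50.9% of APP/PS1 B cells after thinning, beside 15.4% and 20.8% of T cells. As deposited the shares were 58.1% and 87.5% of B cells and 44.4% and 51.7% of T cells. Cst3 is also abundant in monocytes, where it had 2806 CPM and 3498 CPM. The ratio was 1.57 in T cells, 1.25 in monocytes and 1.41 in neutrophils. Of the other monocyte genes, Lyz2 had 318 CPM and 280 CPM in B cells, Ctss 311 CPM and 292 CPM, and Csf1r was at 0 by the rule. The list of 10 monocyte genes summed to 1001 CPM and 1520 CPM, of which Cst3 was the most abundant in APP/PS1. The dendritic cell list of 9 genes summed to 8.11 CPM and 25.1 CPM, with Xcr1, Siglech and Zbtb46 at 0 in both. The part of other cells' RNA in the Cst3 level was not tested.

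Zcwpw1, a reader of histone methylation best known from meiosis, had 129 CPM in WT against 303 CPM in APP/PS1, a ratio of 2.35 (1.94 to 2.86). It was found in 37 and 78 B cells. In T cells it had 6.63 CPM and 4.07 CPM, and in monocytes and neutrophils at most 1.21 CPM. Prkar2b, a regulatory subunit of protein kinase A, had 46.0 CPM and 112 CPM. Atf3 and Jun, transcription factors of the stress response, had 511 CPM and 1007 CPM, and 272 CPM and 462 CPM. The Jun ratio was 2.31 in monocytes and 1.75 in neutrophils. Pycard, the adaptor of inflammasomes, had 88.4 CPM and 163 CPM, and 1 cell held 47 of its 241 APP/PS1 UMIs. With the percentile limits of the study's methods its log2 ratio fell from 0.89 to 0.59, just past 1.5-fold. Evi2a had 71.2 CPM and 123 CPM. C130026I21Rik had 56.8 CPM and 92.8 CPM. Ccl5 had 32.5 CPM and 127 CPM, but 64.7% of its APP/PS1 UMIs came from the single cell described above.

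Among the genes lower in APP/PS1, besides Ighd, were Ccr7, Cd24a and Bach2. Ccr7, the receptor that guides lymphocytes into lymph nodes, had 215 CPM in WT against 116 CPM in APP/PS1, a ratio of 0.540 (0.441 to 0.660). Its ratio in T cells was 0.423. Cd24a, a surface protein of immature B cells, had 373 CPM and 208 CPM. Bach2, a repressor that keeps B cells from becoming plasma cells, had 124 CPM and 69.8 CPM, and Id3 112 CPM and 68.4 CPM. Smad7, an inhibitor of TGF-beta signalling, had 128 CPM and 52.8 CPM. Pde4b, a phosphodiesterase, had 155 CPM and 87.4 CPM, Fchsd2 155 CPM and 83.3 CPM, Rgs2 205 CPM and 117 CPM, and the nuclear receptor Nr4a1 136 CPM and 89.4 CPM. Fcer2a did not reach 200 UMIs over both libraries. It had 116 UMIs in WT (105 CPM) and 46 in APP/PS1 (31.2 CPM), a ratio of 0.298 (0.207 to 0.423), and was found in 12.0% and 4.63% of cells after thinning and in no T cell.

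Some of the lower genes were lower in the other cell types as well, and some are known as genes of other cell types. Whether the RNA of the latter came from those cells was not tested. The ribosomal protein gene Rpl29 had 1611 CPM and 908 CPM in B cells, a ratio of 0.564, and its ratio was 0.446 in T cells, 0.514 in monocytes and 0.577 in neutrophils. It was the only called gene of 77 ribosomal protein genes. Pde4b had ratios of 0.514, 0.601 and 0.534 in those cells. Hbb-bt, Hba-a2, Hba-a1 and Hbb-bs had ratios from 0.194 to 0.264, with the UMIs gathered in few cells as given above. The neutrophil genes Retnlg and Cxcl2 had 318 CPM and 147 CPM, and 152 CPM and 70.5 CPM, and the platelet gene Pf4 had 130 CPM and 64.4 CPM. Leaving out the 16 WT and 15 APP/PS1 cells with most RNA of other cell types brought Retnlg to a log2 ratio of 0.00 and Ccl5 to one of 0.46. The cells were picked by haemoglobin, by S100a8 and S100a9, by platelet genes and by killer cell genes, Ccl5 and Gzma among them. The Ccl5 ratio was therefore bound to move, and nothing is read from it. Retnlg was not used to pick the cells, though S100a8 and S100a9 are neutrophil genes as well. The cells were chosen after the values had been seen, and the source of the Retnlg RNA was not tested. No WT cell and 1 APP/PS1 cell reached 1% of platelet genes, and without that cell the platelet list had 257 CPM and 139 CPM. Gm8369 had 398 CPM and 195 CPM.

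**Figure D3:**
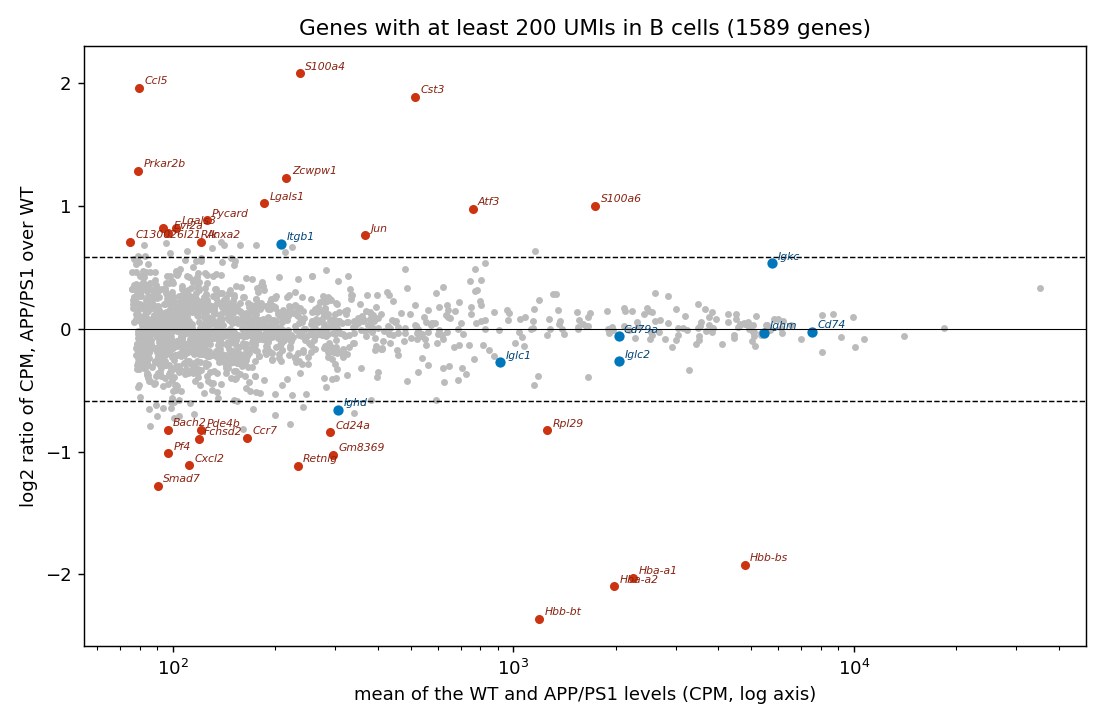
Mean level in the B cells of both libraries (x axis, CPM, log axis) against the log2 ratio of APP/PS1 to WT (y axis) for 1589 genes. Red points are the 15 highest and 15 lowest ratios, blue points are receptor and related genes, and dashed lines mark 1.5-fold. Most genes lay near 0, S100a4 was highest at 2.08, and haemoglobin genes were lowest.

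The counts of called genes in the following lists stand beside the 4.09% called among all 1589 genes, so that in a list of this size no call, or 1, is near that share and is no result about the list. None of the 12 identity genes was called (median log2 ratio -0.01), but the rule had used 3 of them, Cd79a, Cd79b and Ms4a1, so nothing is read from this count. Fcmr had 710 CPM and 475 CPM, a ratio of 0.669. Of the 25 antigen receptor signalling genes, 18 were tested and none was called (median -0.02), with the kinase Syk at 419 CPM and 413 CPM and the kinase Blk at 217 CPM and 210.0 CPM. Of the 12 genes of MHC class II and its loading, 10 were tested and none was called (median -0.05), with Cd74 at 7587 CPM and 7468 CPM and H2-Aa at 3076 CPM and 2775 CPM. The 2 genes of the inhibitory H2-O molecule in this list, H2-Oa and H2-Ob, had ratios of 0.700 and 0.755. Of 17 survival genes 7 were tested and none was called, with the BAFF receptor Tnfrsf13c at 89.3 CPM and 90.8 CPM. Of the 25 type I interferon genes 6 were tested and none was called (median -0.08). Of the 25 transcription factors 17 were tested and 2, Bach2 and Id3, were called. A ratio below 1 was found for 15 of the 17, beside a median log2 ratio of 0.0026 over all 1589 genes. No test was made of this count. Among 16 immediate early genes 1 was called higher, Jun, and 1 lower, Nr4a1.

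The lists of B cell subsets are small, and their counts stand beside the 1.89% of all genes called higher and the 2.20% called lower. Of the 12 B1 genes 7 were tested, and 4 were called higher in APP/PS1: S100a6, Zcwpw1, Itgb1 and Anxa2 (median log2 ratio 0.69 over those tested). Of the other tested members Zbtb32 had 87.5 CPM and 120 CPM, a ratio of 1.37 that was not called. Bhlhe41, a transcription factor of B1 cells, had 104 CPM in both, and Zbtb20 691 CPM and 553 CPM. The remaining members had under 200 UMIs and entered neither the count nor the median. Of these Ahr had 72.1 CPM and 33.9 CPM, a ratio of 0.470 (0.323 to 0.677), and Ctla4 55.0 CPM and 36.6 CPM, a ratio of 0.665. Cd5, the marker of B1a cells, had 4 and 6 UMIs. Of the 7 follicular genes 5 were tested and 2, Ighd and Ccr7, were called lower (median -0.52), while 2 of the 5 had a ratio above 1. Klf2, which keeps lymphocytes circulating, had 2585 CPM and 3110 CPM. Of the 9 transitional genes 2 were tested and both, Cd24a and Bach2, were called lower. Of 10 marginal zone genes 4 were tested and 1, the chaperone Pdia4, was called higher, at 159.9 CPM in APP/PS1 and a ratio of 1.58. Of 16 homing genes 12 were tested, with Itgb1 and Itgb7 called higher and Ccr7 and Rgs2 lower.

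Transcripts of cell division were few. Mki67 had 1 and 2 UMIs, and Birc5, Cdk1 and Ccnb2 were at 0 in both libraries. The cell cycle list was led by Tubb5, a tubulin that resting cells also make, at 206 CPM and 219 CPM. The rule had removed cells with 3 or more Jchain UMIs, so these data do not measure antibody-secreting cells. Tnfrsf17, a plasma cell receptor, was at 0 in both, and Mzb1, a chaperone of IgM assembly that B1 and marginal zone cells share with plasma cells, had 527 CPM and 565 CPM.

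To see how cells varied among themselves, the 522 cells were clustered without immunoglobulin genes, rule genes, mitochondrial genes and 754 genes that differed between the libraries. They fell into 4 clusters. The first held 342 cells and was led by Ctla4, Ahnak2, Rap1gap, Sox5 and Lmo7. Of the 11 B1 genes with at least 20 UMIs, 10 were over 1.5-fold higher there than in the other B cells, with 5 CPM added to both levels, among them Zbtb32, Ahr, Spn and Bhlhe41. Of all 7876 genes with that many UMIs, 12.3% were. Also higher there were 4 of 8 marginal zone genes (Dtx1, Pdia4, Plac8 and Cd36), 3 of 7 age-associated and memory genes (Fcrl5, Pdcd1lg2 and Nt5e) and the follicular gene Cxcr5, so the cluster was given no name. It held 5 of the 9 WT cells and 17 of the 19 APP/PS1 cells with at least 5 switched UMIs. The clusters were made from these same cells, so the counts are a description and no test. Zbtb32 had 128 CPM in it and 2.91 CPM in the second cluster. The second held 117 cells and was led by Vpreb3, Fcer2a, Satb1, Gzma and Maf, Gzma through the single cell named above. Of the 7 follicular genes 5 were higher there, among them Ighd, Fcer2a and Ccr7, and so were the transitional genes Vpreb3 and Bach2, so it was not named either. Genes of other cell types were higher there as well. They were 6 of 7 erythroid genes, 4 of 5 platelet genes (Ppbp, Pf4, Gp9 and Clec1b) and 3 of 4 killer cell genes, of which 1 was lower. The share of all genes higher in the second cluster was 19.0%. Fcer2a had 387 CPM in it and 13.9 CPM in the first cluster, and Ighd 882 CPM and 209.7 CPM. The third held 44 cells of a median of 1499 UMIs in WT and 1738.5 in APP/PS1, led by Gng11 and the platelet gene Pf4. All 5 platelet genes with at least 20 UMIs were higher there, beside 7.63% of all genes. Of the 12 identity genes 9 were over 1.5-fold lower there and 0 higher. All 7 follicular genes and 9 of 10 neutrophil genes were lower as well. The share of all genes lower there is not given. The fourth held 19 cells, led by Cxcl2 and Slc7a11. Their median was 7561 UMIs in WT and 8595.5 in APP/PS1, against 4059 and 5368 over all B cells. All 10 neutrophil genes were higher there, and so were 7 of 8 monocyte genes, Cst3 among them, beside 18.3% of all genes. Neither was named. No doublet caller was run, and whether these cells were doublets was not tested.

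The first cluster held 140 of 241 WT cells (58.1%, 51.6% to 64.4%) and 202 of 281 APP/PS1 cells (71.9%, 66.2% to 77.1%). The second held 80 WT cells (33.2%, 27.3% to 39.5%) and 37 APP/PS1 cells (13.2%, 9.44% to 17.7%). The intervals of the libraries did not overlap for either of these clusters. The third held 12 WT cells (4.98%, 2.60% to 8.54%) and 32 APP/PS1 cells (11.4%, 7.92% to 15.7%), and these intervals overlapped. The fourth held 9 WT cells (3.73%) and 10 APP/PS1 cells (3.56%). The clusters differed in depth, with medians of 5372.5 and 5911 UMIs in the first and 2773.5 and 2963 in the second, and the part of depth in their shares was not tested. With 30 principal components in place of 15 the first and second clusters merged.

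Within the first cluster S100a4, Cst3, S100a6 and Zcwpw1 were higher in APP/PS1 too. They were picked by their ratios over all 522 B cells, of which this cluster held 342, so these values are no separate observation. S100a4 had 106 CPM in WT against 394 CPM in APP/PS1 (ratio 3.73, 2.96 to 4.77), Cst3 202 CPM and 775 CPM (3.83, 3.24 to 4.56), S100a6 1364 CPM and 2506 CPM (1.84, 1.71 to 1.97) and Zcwpw1 157 CPM and 328 CPM (2.09, 1.70 to 2.57). Cst3 was also higher in the second cluster, at 283 CPM and 749 CPM. Zcwpw1 was at 0 in the second cluster of both libraries. Igkc had 4323 CPM and 7076 CPM in the first cluster and 6854 CPM and 7106 CPM in the second. In the first cluster 34 of 140 WT cells (24.3%, 17.4% to 32.2%) and 22 of 202 APP/PS1 cells (10.9%, 6.95% to 16.02%) held at most 1 Igkc UMI, while in the second cluster 8 of 80 and 4 of 37 did. Cd24a had 384 CPM and 192 CPM in the first cluster but 330 CPM and 476 CPM in the second, where both intervals overlapped.

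Ighd and Ccr7 were also compared within the clusters. In the second cluster Ighd had 874 CPM in WT against 899 CPM in APP/PS1 (ratio 1.03, 0.803 to 1.31), and Ccr7 461 CPM and 388 CPM (0.842, 0.579 to 1.21). In the first cluster Ighd had 245 CPM and 187 CPM (0.762, 0.627 to 0.928) and Ccr7 156 CPM and 102 CPM (0.652, 0.504 to 0.843). The ratio of Ighd over all B cells, 0.632, was thus below its ratio in both clusters. The intervals of both genes overlapped between the clusters, and whether the clusters differed in these ratios was not tested.

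**Figure D4:**
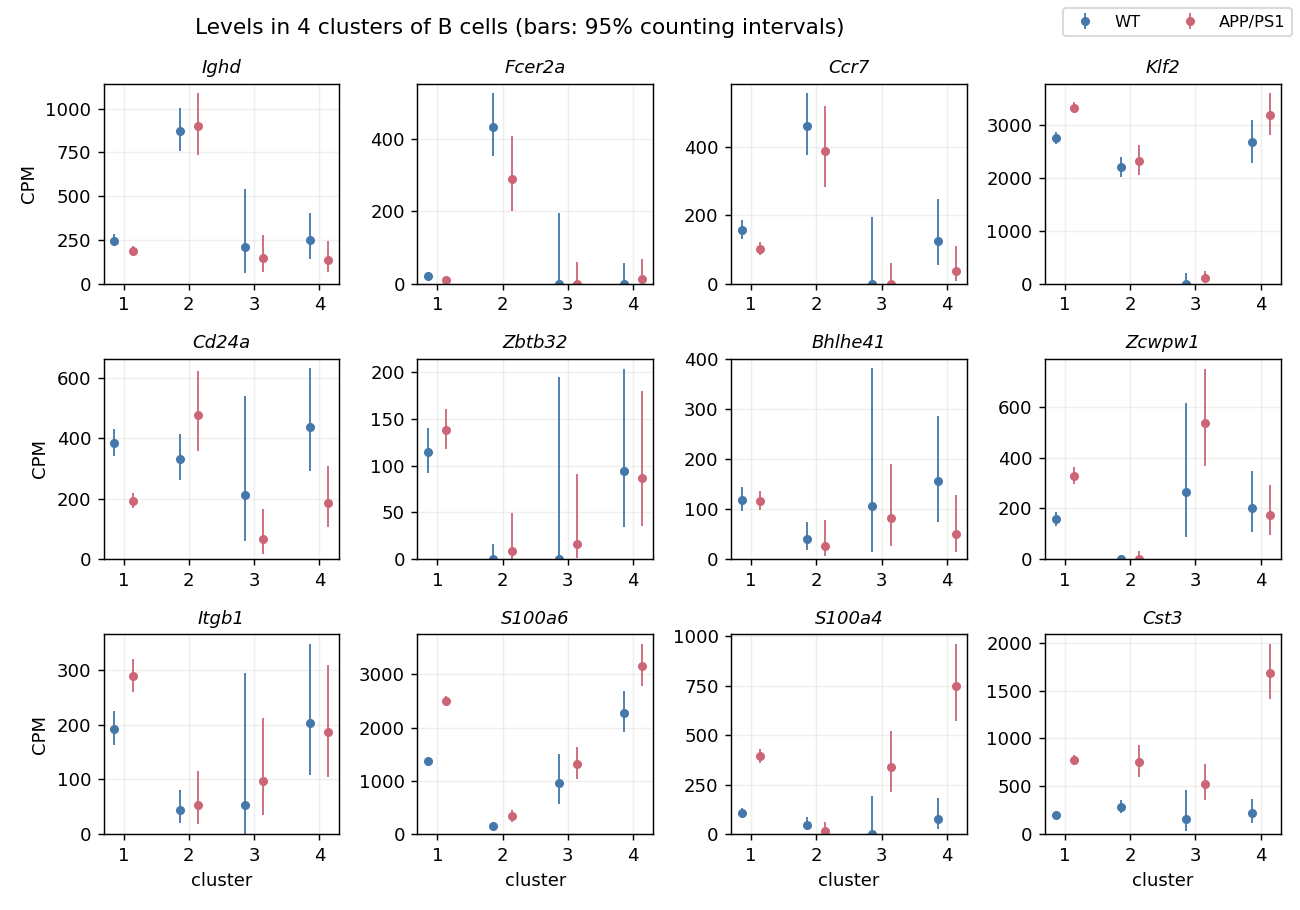
Level (y axis, CPM, linear from 0) of 12 genes in the 4 clusters of B cells (x axis, numbered by size), with 1 point for each library and 95% Poisson intervals as bars. Ighd and Ccr7 were high in cluster 2 of both libraries, while S100a4 and Cst3 were higher in APP/PS1 than in WT within cluster 1.

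The variable segments had no part in the clustering. All 19 cells with a UMI of Ighv11-2 or Igkv14-126 lay in the first cluster, which held 342 of the 522 cells. Of the 161 cells with any heavy chain or kappa segment, 117 lay there. Igkv12-46 was found in 5 cells of the first cluster and 4 of the second, and Iglv1 in 19 of the first and 1 of the second. Cells of the first cluster were deeper, and since clusters were made from the same cells these counts are a description and no test was made.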

How the data were processed

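The authors deposited raw UMI counts per gene and barcode for 2 libraries made with the 10x Genomics 3′ v3 kit. Per the submitters' processing notes, Cell Ranger 5.0.0 and the mm10 build were used. Nothing was normalized. Members were chosen by the fixed marker rule, and the rule, gene lists and named genes (all list members, the 15 highest and 15 lowest ratios, the 20 genes highest against other blood cells, the 10 most used segments per chain and the 5 leading genes of a cluster) were set with earlier results of these data known. T cells, monocytes, neutrophils and plasma cells were taken by like rules. Counts were summed with Python, numpy and scipy. CPM has exact Poisson, ratios exact conditional and shares Clopper-Pearson intervals at the 95% level. With 1 library per genotype nothing was tested. Clusters used 15 principal components, 20 neighbours and leidenalg at resolution 0.3. Doublets were not removed. Cells with the most UMIs were left out in an alternative, and other alternatives were other cell limits, gene filters, library sizes (edgeR 4.0.16, TMM), folds and thinning. The interval code was tested on simulated data. Coordinates and sequences are those of GENCODE M21 (GRCm38). Some genes that the rule names are not reported here.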

Additional observations from a re-analysis of the deposited data

How the results depend on the processing

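No paired analysis was possible because each genotype is a single library. With the percentile limits of the study's methods, B cells made up 1.65% of WT and 1.83% of APP/PS1 cells that passed. Genes higher and lower in APP/PS1 numbered 250 and 268 from 50 UMIs, 11 and 12 from 500 UMIs, and 7 and 9 at a fold of 2. These follow from the filters. Thinned to 1000 UMIs, WT and APP/PS1 shares were 64.3% and 72.2% for both light chains, 86.7% and 86.8% for lambda, 32.4% and 18.5% for Ighd, 6.22% and 5.69% for switched isotypes and 28.2% and 20.996% for at most 1 Igkc UMI. From 2 UMIs they were 95.02% and 96.8% for lambda, 36.9% and 25.3% for Ighd, and 4.98% and 9.96% for switched isotypes. With 30 principal components the merged first cluster held 91.3% and 85.1%, and the second 0% of cells in both. Leaving out cells with RNA of other cell types, chosen after the values had been seen, turned Retnlg to a log2 ratio of 0.0025. Those cells were picked partly by the neutrophil genes S100a8 and S100a9 but not by Retnlg. Because the choice was made after the values had been seen, nothing is read from this value. Of 384 values of 48 named genes under 8 alternatives, 360 stayed within their counting interval. Thinning also took the shares with any variable segment UMI from 39.8% and 35.6% to 12.4% and 6.76%. The shares with at least 5 switched UMIs went from 3.73% and 6.76% to 0.415% and 0.712%. Of 142 values of 24 other results, 114 stayed within their limit and 28 moved beyond it. Depth limits every gene under 200 UMIs, and with pooled mice no value has a biological error.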

Other observations

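Cells with antibody-secreting transcripts were taken by a separate rule without the limit on marker UMIs, so they are not the same set as the cells that the Jchain step removed. Cells with at least 3 Jchain UMIs, no T cell receptor chain and no Csf1r numbered 7 in WT and 12 in APP/PS1. Igkc took 175307 CPM and 226105 CPM of their UMIs and Igha 45317.5 CPM and 63052 CPM, the larger part of the 59188 CPM and 75798 CPM of all heavy chain constant regions. Lambda made up 4.15% of their light chain constant UMIs in WT and 20.3% in APP/PS1. Iglc1 had 47877 CPM in these APP/PS1 cells and 2975 CPM in the WT cells.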
